A study of Homo sapiens with 6 samples.

Results

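Enzymes that put marks on histones (writers) and enzymes that take them off (erasers) were read from RNA-seq gene counts in H1299, a human line long grown from non-small cell lung cancer. The genes were chosen by name: the KMT, KDM, SETD, HDAC, KAT and SIRT families with EZH1, EZH2, NSD1 to NSD3, EP300 and CREBBP, without antisense and divergent transcripts. This took 69 of 19201 entries in the table, of which 32 are writers, 35 are erasers and 2 are pseudogenes of KMT5A, and all 69 passed the filter on low counts. The rule used names and no measured value. Of the 6 libraries, 3 came from cells overexpressing lncBCAS1-4_1, a long non-coding RNA, and 3 from wild-type cells of the same line. The labels name no vector, drug or vitamin D treatment for either group, and they do not say whether the overexpressing cells were 1 clone or a pool. How the cells were made and what the RNA does cannot be told apart here. The labels also do not say that replicates were separate cultures, so p-values measure the spread between these libraries, which may be technical.

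Total counts were 84531039 to 92780032 per library. The overexpressed RNA itself was not measured here, but CYP24A1, the vitamin D 24-hydroxylase named in the study's title, had 2513 to 3587 CPM (counts scaled to a common library size) in overexpressing libraries and 0.602 to 0.909 CPM in controls. Of 5 epithelial markers 4 were tested, and they summed to 1677 to 1891 CPM in overexpressing libraries and 1261 to 1428 CPM in controls, nearly all from the keratins KRT8 and KRT18, with KRT19 under 1 CPM. CD68, a macrophage marker that other cells also express, had 79.3 to 87.8 CPM in overexpressing libraries and 69.6 to 73.9 CPM in controls. The endothelial markers PECAM1 and VWF stayed under 1 CPM, and VWF was at 0 in 1 overexpressing library. Stromal markers (3 of 4 tested) summed to 13.9 to 14.1 CPM in overexpressing libraries and 12.8 to 14.5 CPM in controls.

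Histone tails carry methyl and acetyl groups that mark active and silent chromatin. Methylation of lysine 4 of histone H3 (H3K4) marks promoters and enhancers, H3K36 methylation marks transcribed gene bodies, and H3K27 methylation by the PRC2 complex marks silenced genes. Acetyltransferases open chromatin, and deacetylases (HDACs and the NAD-dependent sirtuins) and demethylases (flavin enzymes such as LSD1 and the jumonji enzymes) reverse these marks. Many of these genes are mutated or misexpressed in lung cancer, and several HDACs and sirtuins act mainly on proteins other than histones.

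Promoters are printed for 6 enzymes with 1 start site that kept their call in all 25 other settings tried at the same threshold, and for KAT5, the only writer that was higher in both fits described further on. The writers NSD2, SETD2, KMT2A, SETD7 and KAT2B and the eraser KDM1B were lower in overexpressing cells. The 250 bases before the start are given from RefSeq (GRCh38.p14), 5′ to 3′ on the gene's strand, with capitals for matches of either strand to the GC box GGGCGG, the E-box CACGTG and the ETS site CCGGAAGT, where overlapping matches run together.
NSD2: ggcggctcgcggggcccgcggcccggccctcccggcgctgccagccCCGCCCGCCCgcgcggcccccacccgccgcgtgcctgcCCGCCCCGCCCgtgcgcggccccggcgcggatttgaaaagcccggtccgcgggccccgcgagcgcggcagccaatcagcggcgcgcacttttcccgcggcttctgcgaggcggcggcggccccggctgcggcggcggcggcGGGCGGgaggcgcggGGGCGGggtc
SETD2: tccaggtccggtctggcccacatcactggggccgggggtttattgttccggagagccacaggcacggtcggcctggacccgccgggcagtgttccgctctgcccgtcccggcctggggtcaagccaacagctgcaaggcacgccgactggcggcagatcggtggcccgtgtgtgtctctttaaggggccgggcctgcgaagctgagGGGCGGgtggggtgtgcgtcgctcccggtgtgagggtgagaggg
KMT2A: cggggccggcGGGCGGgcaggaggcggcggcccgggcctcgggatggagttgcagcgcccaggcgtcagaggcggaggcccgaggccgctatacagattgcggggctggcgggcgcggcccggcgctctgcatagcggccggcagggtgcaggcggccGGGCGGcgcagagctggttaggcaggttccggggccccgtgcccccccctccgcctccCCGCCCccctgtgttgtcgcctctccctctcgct
SETD7: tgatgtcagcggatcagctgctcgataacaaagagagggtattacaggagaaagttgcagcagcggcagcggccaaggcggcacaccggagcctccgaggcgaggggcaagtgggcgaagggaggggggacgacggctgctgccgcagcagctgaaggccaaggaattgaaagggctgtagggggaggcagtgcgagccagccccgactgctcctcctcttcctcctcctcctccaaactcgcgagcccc
KAT2B: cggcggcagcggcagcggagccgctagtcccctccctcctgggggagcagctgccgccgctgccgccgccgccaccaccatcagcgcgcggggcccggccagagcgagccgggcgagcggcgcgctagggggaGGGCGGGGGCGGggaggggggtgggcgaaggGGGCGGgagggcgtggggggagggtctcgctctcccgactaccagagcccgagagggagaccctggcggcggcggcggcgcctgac
KDM1B: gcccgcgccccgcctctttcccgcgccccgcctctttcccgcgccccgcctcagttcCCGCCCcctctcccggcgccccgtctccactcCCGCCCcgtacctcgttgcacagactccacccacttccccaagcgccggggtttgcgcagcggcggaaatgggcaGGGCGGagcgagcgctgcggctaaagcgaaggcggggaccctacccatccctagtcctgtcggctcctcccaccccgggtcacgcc
KAT5: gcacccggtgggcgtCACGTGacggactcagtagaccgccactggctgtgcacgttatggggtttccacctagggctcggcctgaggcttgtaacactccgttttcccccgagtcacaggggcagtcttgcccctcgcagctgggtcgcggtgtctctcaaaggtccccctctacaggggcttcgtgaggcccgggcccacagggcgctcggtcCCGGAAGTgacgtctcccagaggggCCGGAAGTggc
These windows lie at chr4:1871143-1871392 on the plus strand for NSD2, chr3:47164114-47164363 on the minus strand for SETD2, chr11:118436242-118436491 on the plus strand for KMT2A and chr4:139556220-139556469 on the minus strand for SETD7. The others lie at chr3:20040196-20040445 on the plus strand for KAT2B, chr6:18155172-18155421 on the plus strand for KDM1B and chr11:65712002-65712251 on the plus strand for KAT5. Among the 43 enzymes with 1 start site in that table, the GC box was in the window of 14 of 20 writers (70%) and 15 of 23 erasers (65.2%), against 40.9% of 22114 promoters of the same length. The E-box was in 3 writers and 4 erasers (15% and 17.4%, against 6.34% of all promoters), and CCGGAAGT in 3 writers and 1 eraser (15% and 4.35%, against 3.74%). The cyclic AMP element TGACGTCA was in none of the 43, against 1.82% of all promoters. Median GC content of the window was 68.2% for writers, 68.4% for erasers and 57.2% for all promoters. The SETD7 window holds none of these letters.

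Among writers more genes fell than rose in overexpressing cells, and among erasers more rose than fell; the difference between the 2 sides was not tested. Tests were edgeR's quasi-likelihood test with Benjamini-Hochberg adjustment over all 19101 entries tested, and a call is an adjusted p under 0.05. Of the 32 writers, 17 fell (53.1%) and 2 rose (6.25%). Of the 35 erasers, 5 fell (14.3%) and 11 rose (31.4%). Among all entries 19.7% were called lower and 18.3% higher. The median log2 fold change (overexpressing over control) was -0.23 for writers and 0.084 for erasers, beside -0.0041 for all entries. The 3 libraries of each group did not overlap in CPM for 19 lower and 5 higher writers and for 6 lower and 15 higher erasers, where 26.0% of all entries did not overlap with the overexpressing group lower and 24.7% with it higher. In bulk RNA, fewer cells that express a gene and less RNA per cell cannot be told apart. The changes were small: 10 of the called enzymes differed by over 1.5-fold, where 9.04% of all entries were called and past that fold, and none met the 2-fold criterion named in the labels, which 2.95% of all entries met with an unadjusted p under 0.05.

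The fold changes of these libraries moved with the base composition of the transcripts, and values with a correction for it stand beside those as fitted. Across the 10128 genes whose mean log2 CPM was above 3, the log2 fold change had a Spearman correlation of 0.721 with the GC content and -0.485 with the length of the canonical transcript. Over the 67 enzymes these were 0.675 and -0.578, over writers 0.613 and -0.549, and over erasers 0.79 and -0.45. These points come from the same 6 libraries, and writers and erasers differ in both properties: median GC content was 47.7% for writers and 51.3% for erasers, and median length 6869.5 nt and 4486 nt. The correction took the trend of each library on GC content and length out of the counts before the same edgeR test, and left correlations of 0.11 and -0.185 over the enzymes. Over writers 0.088 and -0.331 were left, and over erasers 0.0501 and 0.264. Some relation to length, of opposite sign, thus stayed on each side. After it, 11 writers were lower (34.4%) and 2 higher (6.25%), and 4 erasers were lower (11.4%) and 8 higher (22.9%), beside 11.3% lower and 11.4% higher among all entries. The corrected medians were -0.13 for writers, 0.072 for erasers and -0.017 for all entries. Called in the same direction in both fits were 10 lower writers and 1 higher writer, and 1 lower eraser and 4 higher erasers, where 7.44% of all entries were lower in both and 7.35% higher in both. What produced the trend was not tested.

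**Figure D1:**
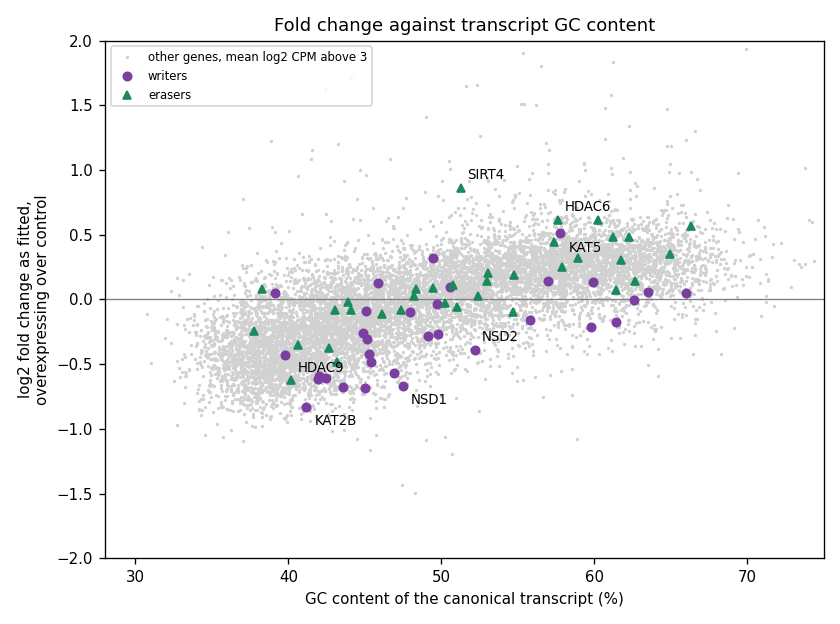
Log2 fold change of each gene, overexpressing over control, as fitted (y axis) against the GC content of its canonical transcript in percent (x axis), for writers (circles), erasers (triangles) and other genes with a mean log2 CPM above 3 (small points). Fold changes are higher at higher GC content, with a Spearman correlation of 0.675 over the 67 enzymes and 0.721 over the 10128 genes, and genes beyond the y axis are not drawn.

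**Figure D2:**
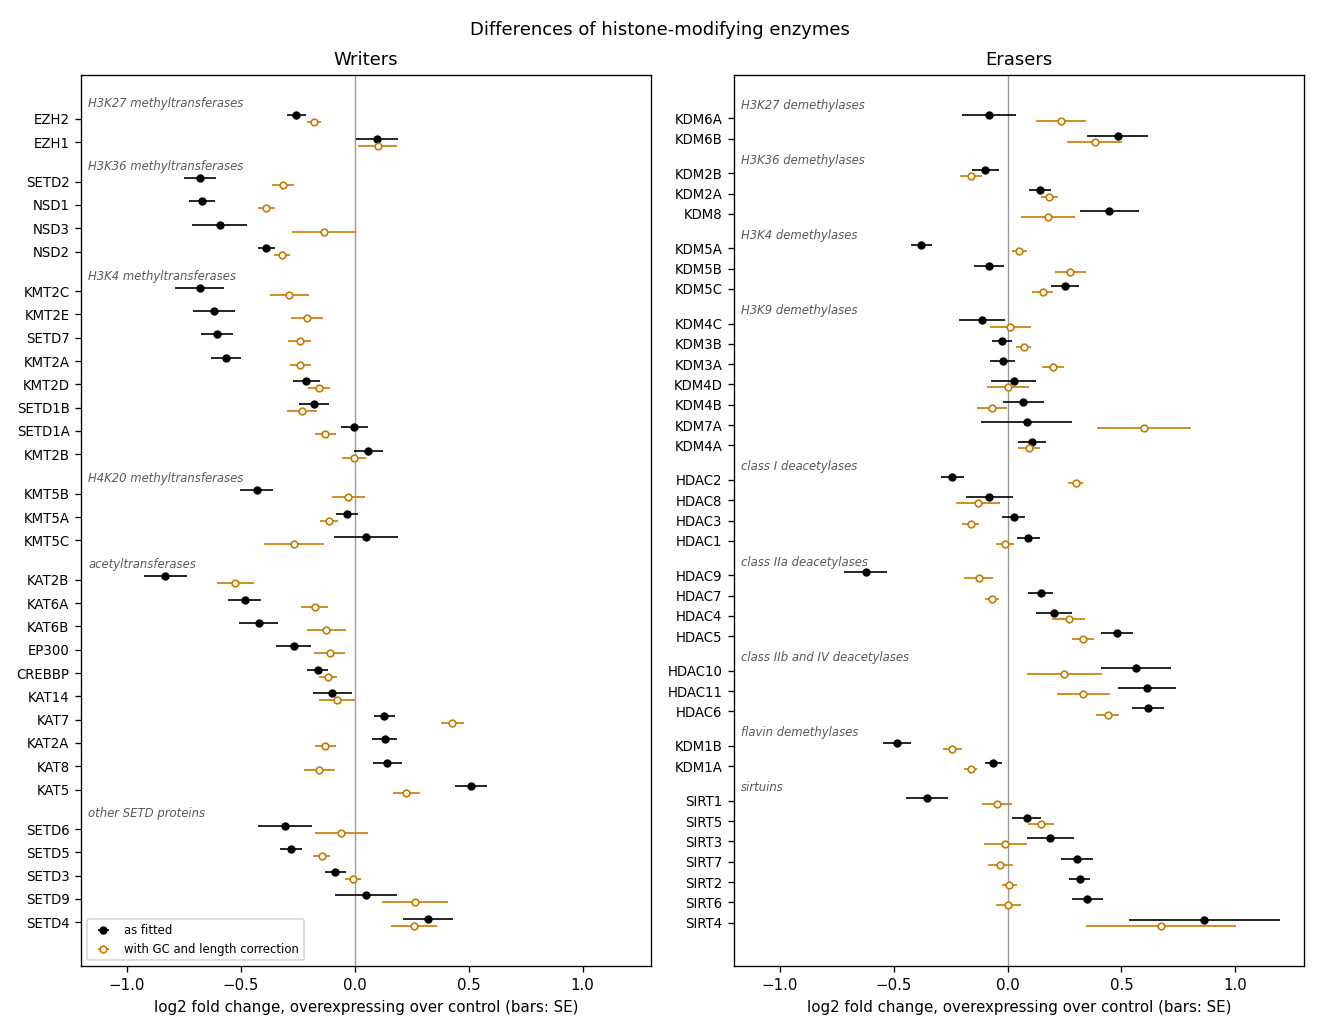
Log2 fold change of each of the 32 writers (left) and 35 erasers (right), overexpressing over control, by family, as fitted (filled points) and with the GC and length correction (open points), with bars of 1 SE. As fitted, 17 writers and 5 erasers were called lower and 2 writers and 11 erasers higher, and most corrected points lie nearer to 0.

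Among the writers of H3K36 methylation, all 4 fell in overexpressing cells, and 3 of the 4 also did with the correction. NSD1 (ENSG00000165671, chr5:177131830-177300213, plus strand in GRCh38), which dimethylates H3K36, had 61.9, 68 and 68.1 CPM in the overexpressing libraries, against 108, 108 and 99.1 CPM in the controls (log2 fold change -0.67, SE 0.056, adjusted p = 0.000108). NSD2, a dimethyltransferase often raised in cancer, had 384, 383 and 398 CPM in the overexpressing libraries, against 517, 514 and 493 CPM in the controls (log2 fold change -0.39, SE 0.039, adjusted p = 0.000226). SETD2, the enzyme that trimethylates H3K36 in transcribed genes, had 32.6, 32.9 and 36.3 CPM in the overexpressing libraries, against 54.4, 58.4 and 50.1 CPM in the controls (log2 fold change -0.68, SE 0.071, adjusted p = 0.000255). In each of the 3 the highest overexpressing library lay below the lowest control. With the correction NSD1 was at -0.39 (SE 0.037), NSD2 at -0.32 (SE 0.035) and SETD2 at -0.31 (SE 0.047), and all 3 remained past the threshold, also in each fit that left out 1 library. NSD3, a further dimethyltransferase, had 28.8, 27.5 and 23.2 CPM in the overexpressing libraries, against 45.1, 33 and 41.7 CPM in the controls (log2 fold change -0.59, SE 0.12, adjusted p = 0.00441). Its overexpressing libraries were all below the controls, but corrected it was at -0.13 (SE 0.14) and did not pass. Summed per length of transcript, the 4 genes gave 62.8 ± 1.23 CPM per kb in overexpressing libraries and 85.3 ± 2.47 CPM per kb in controls (SD, n = 3 each). The ratio of the sums was 0.737, or 0.802 with the correction, and NSD2 made up most of the sum with 51.4 ± 1.11 CPM per kb in the overexpressing libraries and 67.2 ± 1.76 CPM per kb in the controls.

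Among the 8 writers of H3K4 methylation 5 fell and none rose, and with the correction again 5 were lower. KMT2A (MLL1), which acts on HOX and developmental genes, had 97.8, 104 and 112 CPM in the overexpressing libraries, against 164, 158 and 142 CPM in the controls (log2 fold change -0.57, SE 0.066, adjusted p = 0.000365). SETD7, which monomethylates H3K4 and many other proteins, had 41.7, 37.3 and 42.4 CPM in the overexpressing libraries, against 61.3, 66 and 57.2 CPM in the controls (log2 fold change -0.60, SE 0.070, adjusted p = 0.000344). Both had every overexpressing library below every control, and both stayed lower with the correction, at -0.24 (SE 0.046) for KMT2A and -0.24 (SE 0.050) for SETD7. KMT2C, which monomethylates H3K4 at enhancers, had 15, 17.6 and 17.6 CPM in the overexpressing libraries, against 29.4, 27.8 and 23.4 CPM in the controls (log2 fold change -0.68, SE 0.11, adjusted p = 0.0012). KMT2D, its close relative, had 156, 185 and 171 CPM in the overexpressing libraries, against 201, 195 and 197 CPM in the controls (log2 fold change -0.21, SE 0.059, adjusted p = 0.0181). The gap between groups was wide for KMT2C and narrow for KMT2D, where leaving out control 1 ended the call. Corrected, KMT2C was at -0.29 (SE 0.084) and KMT2D at -0.16 (SE 0.048), still past the threshold. Of the 6 corrected fits with 1 library left out, 4 lost the call of KMT2C and 5 that of KMT2D. The correction with 3 degrees of freedom also lost both calls. With a correction for length alone KMT2C lost its call and KMT2D turned to a called rise of 0.22. KMT2E, a relative without established activity on H3K4, had 21, 24 and 25.3 CPM in the overexpressing libraries, against 35.6, 39.5 and 32.7 CPM in the controls (log2 fold change -0.62, SE 0.093, adjusted p = 0.00101). Its groups did not overlap, and with the correction it was at -0.21 (SE 0.071) and missed the threshold. KMT2E kept the call when GC content and length were taken as medians over its coding transcripts. The promoter enzymes SETD1A, SETD1B and KMT2B were not called as fitted, with -0.0013, -0.18 and 0.059 on the log2 scale. SETD1B was called lower after the correction, at -0.23 (SE 0.065). The family summed to 64.1 ± 3.84 CPM per kb in overexpressing libraries and 73.5 ± 0.962 CPM per kb in controls, a ratio of 0.872 (0.912 corrected).

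EZH2, the H3K27 methyltransferase of PRC2 in dividing cells, fell slightly. It had 67.1, 65.7 and 66.8 CPM in the overexpressing libraries, against 80.7, 80.3 and 77.3 CPM in the controls (log2 fold change -0.26, SE 0.041, adjusted p = 0.00137), with tight groups that did not overlap. The corrected value was -0.18 (SE 0.031), past the threshold, but it lost the call, at -0.053, when the GC content and length of the gene were taken as medians over its coding transcripts. EZH1, which stands in for EZH2 in non-dividing cells, had 13.1, 12.3 and 12.8 CPM in the overexpressing libraries, against 11.9, 11.3 and 12.5 CPM in the controls, and its groups overlapped. Of the H4K20 methyltransferases 1 of 3 fell: KMT5B, which adds the higher methylation states, had 19.1, 19.5 and 21.1 CPM in the overexpressing libraries, against 26.9, 25.9 and 27.7 CPM in the controls (log2 fold change -0.43, SE 0.072, adjusted p = 0.00162). The overexpressing libraries were all lower, yet the corrected value of KMT5B was -0.029 (SE 0.073). KMT5A, the monomethyltransferase, was at -0.033 (SE 0.048) and KMT5C at 0.049 (SE 0.14), neither called. Reads of KMT5A could be shared with the pseudogene entries KMT5AP1 and KMT5AP2, which were not called.

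Acetyltransferases split, with 5 of 10 lower and 1 higher as fitted, and 1 lower and 2 higher with the correction. KAT2B (PCAF), an H3K9 acetyltransferase of the SAGA and ATAC complexes, had 12.5, 11.1 and 11.8 CPM in the overexpressing libraries, against 22, 22.2 and 19 CPM in the controls (log2 fold change -0.83, SE 0.095, adjusted p = 0.000343). Its level in overexpressing cells was 0.562 times that in controls, the lowest ratio among the 67 enzymes, and the corrected value was -0.52 (SE 0.081). KAT5 (TIP60), which acetylates H4 and H2A, had 46.6, 42.3 and 43.9 CPM in the overexpressing libraries, against 31.9, 28.6 and 32.8 CPM in the controls (log2 fold change 0.51, SE 0.069, adjusted p = 0.000632). All overexpressing libraries of KAT5 were higher than all controls, and with the correction it was at 0.23 (SE 0.059), past the threshold, a call that 3 of the 6 corrected fits with 1 library left out lost. RNASEH2C overlaps 38.6% of the exons of KAT5 on the opposite strand, and since the strand setting of the counting is not given in the sources used here, reads of both could be mixed. RNASEH2C itself was at 0.23 as fitted and -0.027 corrected on the log2 scale. KAT6A (MOZ) had 24.6, 23.5 and 26.9 CPM in the overexpressing libraries, against 36.9, 34.5 and 33.5 CPM in the controls (log2 fold change -0.48, SE 0.073, adjusted p = 0.00104). KAT6B (MORF) had 16.2, 18.5 and 16.1 CPM in the overexpressing libraries, against 21.7, 22.4 and 23.7 CPM in the controls (log2 fold change -0.42, SE 0.085, adjusted p = 0.00404). Both acetylate H3, both had separate groups, and neither passed with the correction, at -0.18 (SE 0.059) and -0.13 (SE 0.085). The coactivators CREBBP (CBP) and EP300 (p300) fell by little, at -0.16 (SE 0.045) and -0.27 (SE 0.076), and were not called corrected, at -0.12 (SE 0.039) and -0.11 (SE 0.067). With medians over coding transcripts CREBBP kept its call and EP300 did not. As fitted the call of CREBBP was lost without control 1, control 2 or overexpressing 1, and that of EP300 also without overexpressing 3. KAT7 (HBO1), which acetylates H3K14 at replication origins, had 116, 118 and 107 CPM in the overexpressing libraries, against 104, 103 and 104 CPM in the controls. The groups of KAT7 did not overlap, the fitted value of 0.13 (SE 0.046) missed the threshold with an adjusted p of 0.0534, and the corrected value of 0.43 (SE 0.051) was called higher. KAT2A (GCN5), KAT8 (MOF) and KAT14 were not called in either fit, at 0.13, 0.14 and -0.098 as fitted on the log2 scale.

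The remaining SETD genes, placed with the writers by their SET domain, hold 1 fall and 1 rise as fitted. SETD5, whose activity is disputed, had 82.9, 90.3 and 90.8 CPM in the overexpressing libraries, against 108, 109.6 and 103 CPM in the controls (log2 fold change -0.28, SE 0.050, adjusted p = 0.0023). It did not overlap between groups and was at -0.14 (SE 0.037) corrected, a call that 3 of the 6 corrected fits with 1 library left out lost. SETD4 had 15.2, 18.9 and 16.5 CPM in the overexpressing libraries, against 14.6, 12.1 and 13.8 CPM in the controls (log2 fold change 0.32, SE 0.11, adjusted p = 0.0477), with all overexpressing libraries higher. The SETD4 call was lost without any 1 of the 3 controls, without overexpressing 2 and without overexpressing 3, and in the corrected fit at 0.26 (SE 0.10). SETD3, an actin histidine methyltransferase, SETD6 and SETD9 were not called in either fit. CNOT1 on the opposite strand covers 17.5% of the exons of SETD6.

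**Figure D3:**
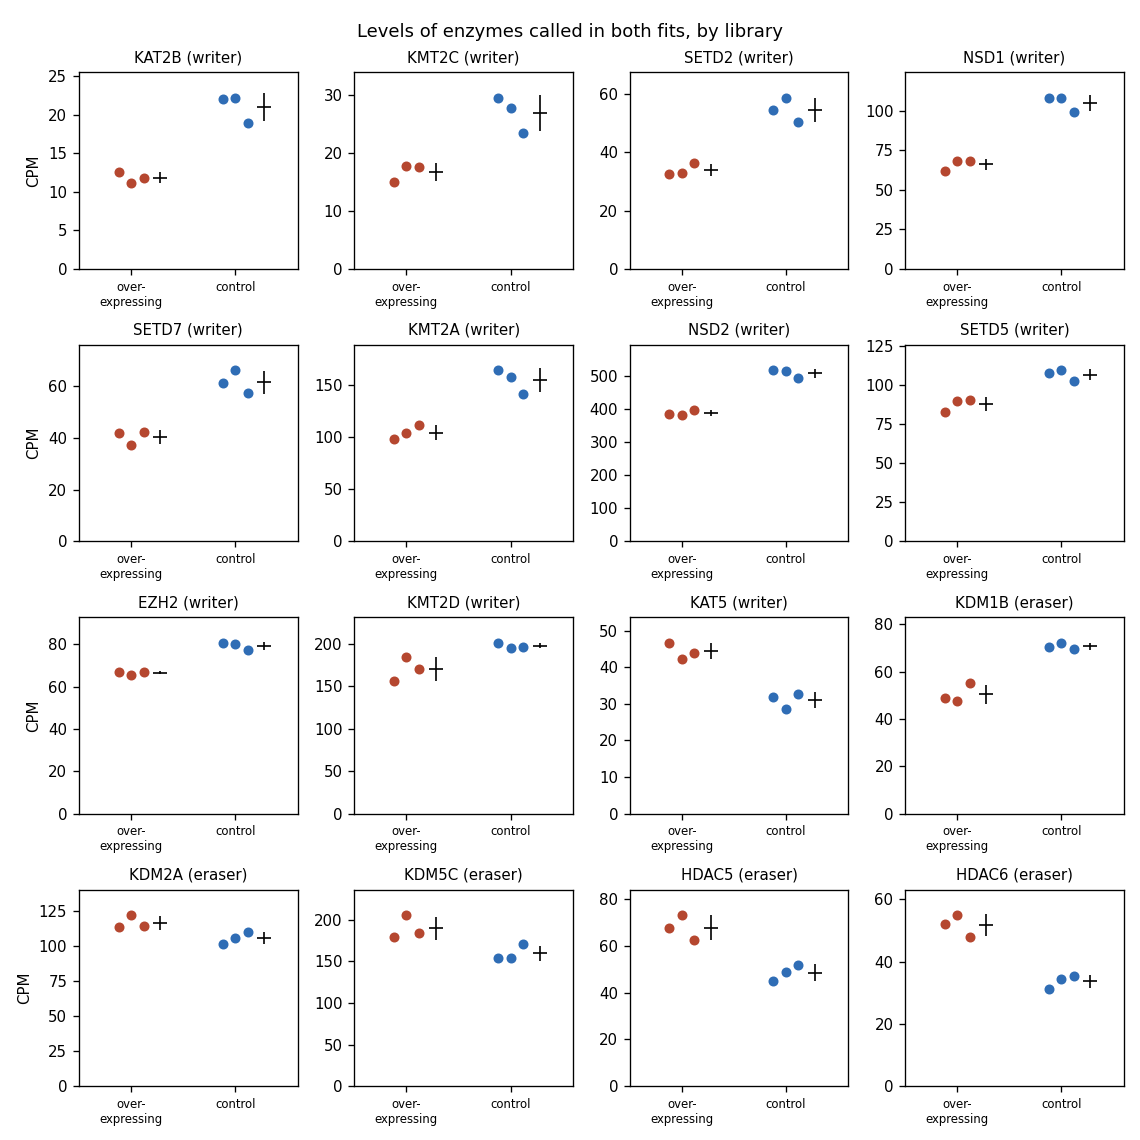
CPM by TMM-scaled library size (y axis, each panel from 0) in the 3 overexpressing (left) and 3 control libraries (right) for the 16 enzymes called in the same direction in both fits, with a cross for the mean and a bar of 1 SD. The groups do not overlap in any panel, and 11 of the 16 enzymes are lower in overexpressing cells.

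The demethylases were 2 of H3K27, 3 of H3K36, 3 of H3K4, 7 of H3K9 and 2 flavin enzymes. Of all these 4 rose and 2 fell as fitted, where 18.3% of all entries were called higher and 19.7% lower. KDM1B (LSD2), a flavin-dependent H3K4 demethylase, had 48.7, 47.7 and 55.1 CPM in the overexpressing libraries, against 70.6, 72.2 and 69.4 CPM in the controls (log2 fold change -0.49, SE 0.060, adjusted p = 0.000446). Its highest overexpressing library lay well below the lowest control, and corrected it was at -0.24 (SE 0.042), the only eraser called lower in both fits. KDM1A (LSD1), the flavin enzyme of the CoREST complex, was at -0.062 (SE 0.038) as fitted and was called lower with the correction, at -0.16 (SE 0.030). The H3K4 demethylases of the KDM5 family went apart. KDM5A had 64.7, 67.3 and 70.1 CPM in the overexpressing libraries, against 87.3, 90.1 and 85.6 CPM in the controls (log2 fold change -0.38, SE 0.046, adjusted p = 0.000419). KDM5C had 179.6, 206 and 185 CPM in the overexpressing libraries, against 154, 154 and 170.4 CPM in the controls (log2 fold change 0.25, SE 0.062, adjusted p = 0.0112). Neither overlapped between groups, KDM5A lower and KDM5C higher in overexpressing cells. With the correction KDM5A was at 0.052 (SE 0.033) and not called, but it was at -0.41 when the median over coding transcripts was used. KDM5C was at 0.15 (SE 0.046) and called, but 4 of the 6 corrected fits with 1 library left out and the correction with 3 degrees of freedom lost that call. It lost its fitted call without control 2. KDM5B had 35, 37.5 and 38.2 CPM in the overexpressing libraries, against 39.6, 36.3 and 41.3 CPM in the controls, with overlapping groups, and was called higher only with the correction, at 0.28 (SE 0.067).

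The H3K27 demethylase KDM6B (JMJD3), known as an inducible gene, had 16.1, 22.1 and 17.8 CPM in the overexpressing libraries, against 13.6, 11.7 and 14.8 CPM in the controls (log2 fold change 0.48, SE 0.13, adjusted p = 0.0193). Its groups did not overlap, and the call was lost without control 1, control 2 or overexpressing 2 and with the correction, at 0.38 (SE 0.12). With medians over coding transcripts KDM6B kept the call. KDM6A (UTX), the other H3K27 demethylase, had 14.4, 17.5 and 18.3 CPM in the overexpressing libraries, against 19.8, 15.8 and 17.5 CPM in the controls, which overlap. KDM2A, which demethylates H3K36 at CpG islands, had 113, 122 and 114 CPM in the overexpressing libraries, against 101, 106 and 109.7 CPM in the controls (log2 fold change 0.14, SE 0.049, adjusted p = 0.0477). The KDM2A difference was small, lost its fitted call in every fit with 1 library left out other than that without control 3, and was 0.18 (SE 0.037) corrected. KDM8 (JMJD5), at 0.45 (SE 0.13), rose as fitted but not corrected, at 0.18 (SE 0.12), and lost the fitted call without control 2, overexpressing 1 or overexpressing 2. KDM2B, a subunit of variant PRC1, was called lower only with the correction, at -0.16 (SE 0.048). None of the 7 H3K9 demethylases was called as fitted, with log2 fold changes from -0.11 to 0.11. KDM3A was called higher with the correction, at 0.20 (SE 0.049). KDM4A had 76.4, 89.5 and 79.5 CPM in the overexpressing libraries, against 77.2, 73.6 and 76.9 CPM in the controls. Its paralogue KDM4B had 38.3, 44.6 and 36.7 CPM in the overexpressing libraries, against 36.1, 36 and 42 CPM in the controls. Both overlapped between groups.

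All 3 class IIb and IV deacetylases rose as fitted. HDAC6 (ENSG00000094631, chrX:48801377-48824982, plus strand in GRCh38), the deacetylase of tubulin in the cytoplasm, had 52.1, 54.9 and 47.9 CPM in the overexpressing libraries, against 31.3, 34.5 and 35.2 CPM in the controls (log2 fold change 0.62, SE 0.070, adjusted p = 0.000326). All overexpressing libraries of HDAC6 exceeded all controls, and it was 0.44 (SE 0.052) corrected, called in each fit with 1 library left out. HDAC11, the class IV enzyme, had 10.8, 12.6 and 9.83 CPM in the overexpressing libraries, against 6.55, 7.82 and 7.35 CPM in the controls (log2 fold change 0.61, SE 0.13, adjusted p = 0.00496). HDAC10, a polyamine deacetylase, was at 0.56 (SE 0.16). Corrected, HDAC11 was at 0.33 (SE 0.12) and HDAC10 at 0.25 (SE 0.17), and neither passed. The HDAC10 call was also lost without control 2, control 3 or overexpressing 2, and MAPK12 on the same strand overlaps 55.8% of its exons. Summed per length the 3 genes gave 20.3 ± 1.67 CPM per kb in overexpressing libraries and 13.3 ± 0.214 CPM per kb in controls (SD, n = 3 each), a ratio of 1.52, or 1.303 with the correction.

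The class IIa deacetylases, corepressors of MEF2 factors, moved in both directions. HDAC5 had 67.7, 73 and 62.4 CPM in the overexpressing libraries, against 44.8, 48.9 and 51.8 CPM in the controls (log2 fold change 0.48, SE 0.072, adjusted p = 0.000968). HDAC9 had 29.1, 24 and 30.7 CPM in the overexpressing libraries, against 45, 44 and 39.98 CPM in the controls (log2 fold change -0.62, SE 0.094, adjusted p = 0.00104). The groups were apart for both, with HDAC5 higher and HDAC9 lower in overexpressing cells. HDAC5 remained higher with the correction, at 0.33 (SE 0.050), and HDAC9 was not called with it, at -0.13 (SE 0.064). HDAC9 kept its lower call with GC content alone, with length alone and with medians over coding transcripts. G6PC3 on the opposite strand overlaps 24.0% of the exons of HDAC5 and was at 0.41 as fitted and 0.078 corrected. HDAC4 was called higher only with the correction, at 0.27 (SE 0.072), and HDAC7 was called in neither fit. Of class I, which holds the nuclear deacetylases of the NuRD, SIN3, CoREST and NCoR complexes, only HDAC2 was called as fitted. HDAC1 had 232, 216 and 212 CPM in the overexpressing libraries, against 204, 199 and 215 CPM in the controls. HDAC2 had 164, 159 and 175 CPM in the overexpressing libraries, against 200.3, 203 and 186 CPM in the controls (log2 fold change -0.24, SE 0.052, adjusted p = 0.00533). HDAC1 overlapped between groups and HDAC2 did not. The correction turned HDAC2 to 0.30 (SE 0.032), called higher, with the canonical transcript of 9737 nt and 37.8% GC content, whereas with medians over coding transcripts it was at -0.16, called lower. No direction is therefore given for HDAC2. HDAC3, the NCoR deacetylase, was called lower only with the correction, at -0.16 (SE 0.037), and HDAC8 was called in neither.

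Of the 7 sirtuins, 3 rose and 1 fell as fitted, and none was called with the correction. SIRT2, a cytoplasmic deacetylase, had 106, 101 and 96.6 CPM in the overexpressing libraries, against 80.8, 80.5 and 82.3 CPM in the controls (log2 fold change 0.32, SE 0.046, adjusted p = 0.000852). SIRT6, which deacetylates H3K9 on chromatin, had 38.7, 34.8 and 34.7 CPM in the overexpressing libraries, against 28.7, 27 and 29.1 CPM in the controls (log2 fold change 0.35, SE 0.067, adjusted p = 0.00325). In both, each overexpressing library was above each control. SIRT7, of the nucleolus, was at 0.30 (SE 0.071). SIRT1, of the nucleus, was at -0.35 (SE 0.092), and its call was lost without control 2 or overexpressing 1. Corrected values were 0.0082 (SE 0.033) for SIRT2, 0.0031 (SE 0.055) for SIRT6, -0.031 (SE 0.056) for SIRT7 and -0.048 (SE 0.066) for SIRT1. The mitochondrial SIRT3 and SIRT5 were not called in either fit. SIRT4, also mitochondrial, averaged 1.31 ± 0.56 CPM in the overexpressing libraries and 0.719 ± 0.17 CPM in the controls, and its log2 fold change of 0.86 (SE 0.33) was not called at this level. The 7 genes summed to 118 ± 4.76 CPM per kb in overexpressing libraries and 99.2 ± 1.21 CPM per kb in controls, a ratio of 1.19 that came to 1.00 with the correction.

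Levels are given as CPM per kb of canonical transcript, so ranks and sums rest on 1 transcript length per gene. HDAC2, taken at 9737 nt, ranked 19 in the overexpressing libraries and 13 in the controls. By this measure HDAC1 was the most abundant of the 67 enzymes, with 104 ± 4.97 CPM per kb in the overexpressing libraries and 97.3 ± 3.91 CPM per kb in the controls. KDM1A followed in the overexpressing libraries, with 59 ± 0.387 CPM per kb in the overexpressing libraries and 61.6 ± 1.38 CPM per kb in the controls. NSD2 ranked above it in controls, with 51.4 ± 1.11 CPM per kb in the overexpressing libraries and 67.2 ± 1.76 CPM per kb in the controls. Among the acetyltransferases EP300 was low, with 3.33 ± 0.314 CPM per kb in the overexpressing libraries and 4.01 ± 0.127 CPM per kb in the controls. All writers together gave 350.1 ± 2.77 CPM per kb in overexpressing libraries and 386 ± 7.44 CPM per kb in controls (SD, n = 3 each), a ratio of 0.908 (0.923 corrected), and the groups did not overlap before or after the correction. All erasers gave 605 ± 13.4 CPM per kb in overexpressing libraries and 568 ± 10.1 CPM per kb in controls, a ratio of 1.07. With the correction that ratio was 1.01 and the groups overlapped.

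**Figure D4:**
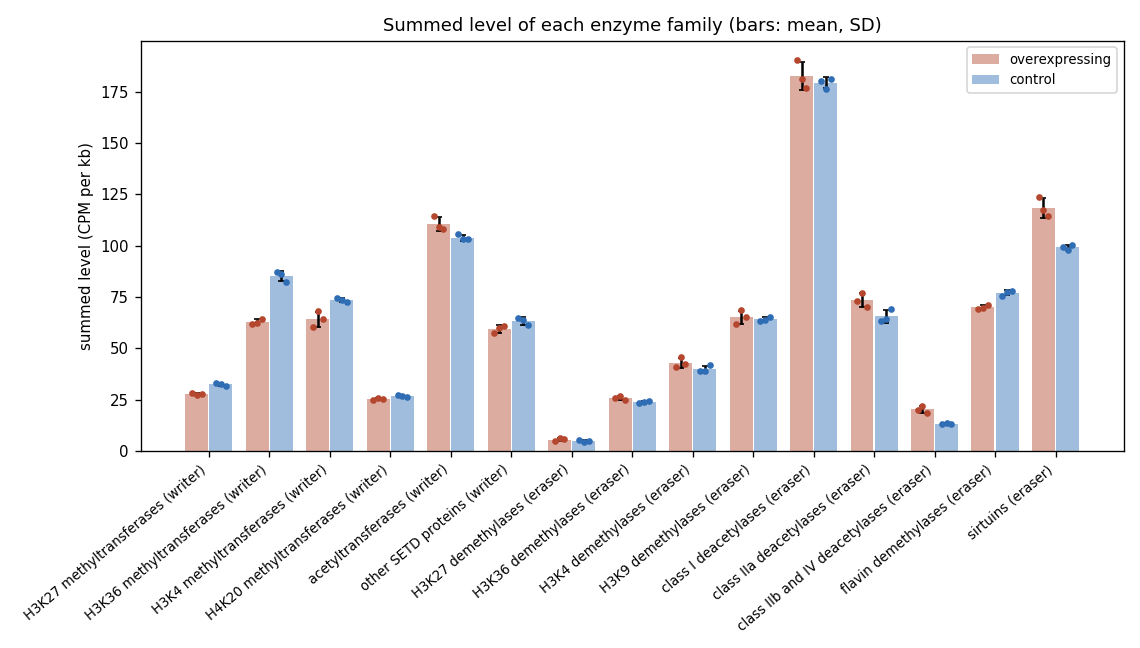
Summed level of each family in CPM per kb of canonical transcript, by library, with the mean and SD of the 3 overexpressing libraries beside those of the 3 controls. H3K36 methyltransferases are lower in overexpressing libraries, 62.8 against 85.3 CPM per kb, and class IIb and IV deacetylases higher, 20.3 against 13.3 CPM per kb.

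Related enzymes of 1 family are described pair by pair here, and no difference passed the threshold. For 10 pairs the ratio of counts within each library was compared between groups by an exact two-sided permutation test, which cannot go below p = 0.1 with 3 against 3, with values adjusted over the 10 pairs. The ratio is of counts, so its size is not a ratio of levels, and dividing by length would leave the difference between groups as it is. The trend of fold changes on GC content and length does enter that difference, so corrected values stand beside it. KAT2A to KAT2B was 8.06, 8.31 and 7.71 in the overexpressing libraries, against 4.05, 3.73 and 4.64 in the controls. The log2 ratio differed by 0.96 (exact p = 0.1, adjusted p = 0.143) and by 0.40 with the correction. KMT2A to KMT2B was 0.561, 0.501 and 0.612 in the overexpressing libraries, against 0.912, 0.901 and 0.762 in the controls, a log2 difference of -0.62 (-0.23 corrected). KMT2B itself had 174, 207 and 182 CPM in the overexpressing libraries, against 179.7, 175 and 186 CPM in the controls. EZH2 to EZH1 was 5.12, 5.35 and 5.2 in the overexpressing libraries, against 6.79, 7.12 and 6.17 in the controls, a log2 difference of -0.36 (-0.28 corrected). In these 3 pairs the groups did not overlap in either form. KMT2C to KMT2D differed by -0.46 (-0.12 corrected), and KDM5A to KDM5B by -0.30 (-0.23 corrected), also without overlap. KDM6A to KDM6B differed by -0.56 without overlap, but by -0.14 with overlap when corrected. HDAC1 to HDAC2 differed by 0.33 as fitted and -0.31 corrected, which turns with the value of HDAC2. The 7 pairs without overlap as fitted all had the smallest p of 0.1, adjusted 0.143. How often pairs of other genes do not overlap was not counted. Of single entries, 26.0% did not overlap with the overexpressing group lower and 24.7% with it higher. EP300 to CREBBP, KAT6A to KAT6B and KDM4A to KDM4B overlapped between groups as fitted, with exact p of 0.3, 0.6 and 0.8. Corrected, EP300 to CREBBP differed by 0.0050 and KAT6A to KAT6B by -0.050, still with overlap. KDM4A to KDM4B differed by 0.037 as fitted and by 0.16 corrected, where its groups did not overlap (exact p = 0.1, adjusted p = 0.143). EP300 had 28.3, 32.3 and 27.1 CPM in the overexpressing libraries, against 35, 36.4 and 34.1 CPM in the controls. CREBBP had 78.5, 84.5 and 84.5 CPM in the overexpressing libraries, against 93, 93.4 and 90.8 CPM in the controls. KAT2A had 101, 92.5 and 91 CPM in the overexpressing libraries, against 89.1, 82.8 and 88.1 CPM in the controls.

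**Figure D5:**
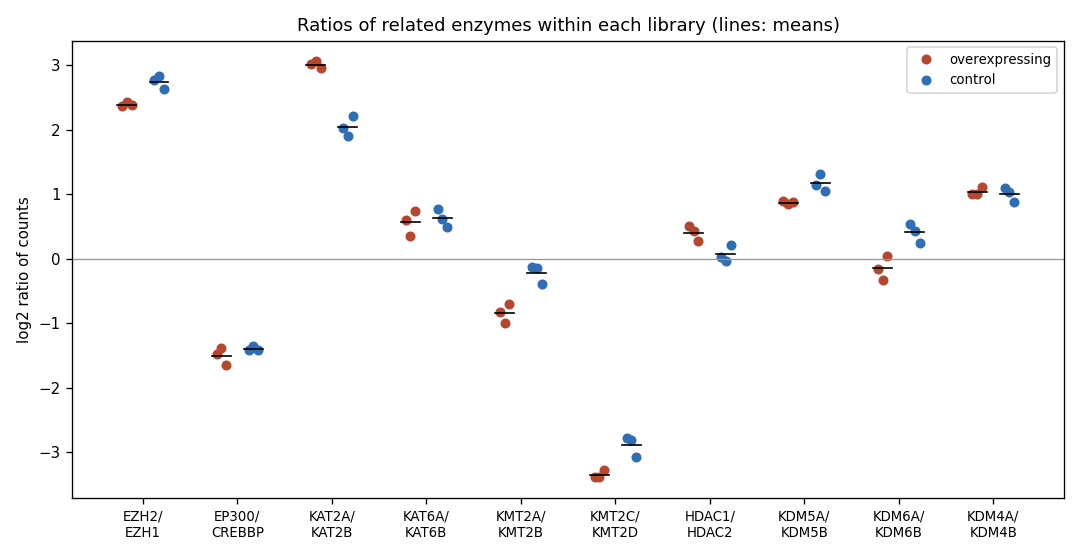
Log2 ratio of counts within each library for the 10 enzyme pairs, overexpressing libraries beside controls. The groups are apart for 7 pairs, with a difference of 0.96 for KAT2A to KAT2B, and overlap for EP300 to CREBBP, KAT6A to KAT6B and KDM4A to KDM4B. The share among pairs of other genes was not counted.

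Genes that work with these enzymes (other writers and erasers, subunits of their complexes and readers of their marks) were counted in the same fit: 59 of 150 fell (39.3%) and 26 rose (17.3%), and with the correction 43 were lower (28.7%) and 15 higher (10%). The shares of all entries were 19.7% lower and 18.3% higher as fitted, and 11.3% and 11.4% with the correction. The readers of acetylated and methylated lysine had 15 of 28 lower and 4 higher, and 12 lower and 2 higher with the correction. CBX5 (HP1 alpha), which binds H3K9 methylation, averaged 171 ± 14 CPM in the overexpressing libraries and 274 ± 15.6 CPM in the controls (SD, n = 3 each). BPTF, the reader of the NURF remodeller, was at -0.68 (SE 0.071). CBX7 and L3MBTL2, both Polycomb proteins, rose at 0.58 (SE 0.088) and 0.43 (SE 0.060), and all 4 kept their direction corrected. Of 10 PRC2 subunits 5 were lower and 1 higher, and 2 were lower and 1 higher with the correction. The last is RBBP4, a histone-binding subunit named after its values were seen, which turned from a called fall of -0.23 (SE 0.050) as fitted to a called rise of 0.19 (SE 0.039) corrected. SUZ12, a core subunit, averaged 25.3 ± 1.99 CPM in the overexpressing libraries and 41 ± 2.66 CPM in the controls, with -0.32 (SE 0.049) corrected and called, AEBP2 was at -0.46 (SE 0.072), and PHF1 was higher at 0.47 (SE 0.066). AEBP2 and PHF1 were not called with the correction. In the COMPASS complexes of the H3K4 writers 4 of 12 were lower and 2 higher, and 6 were lower and 1 higher with the correction. PAXIP1 at -0.35 (SE 0.058) and CXXC1 at 0.49 (SE 0.046) had the smallest p in each direction and were called in both fits. PSIP1 fell as fitted, at -0.35 (SE 0.086), and was not called corrected, at -0.076 (SE 0.053). MEN1, the menin subunit, was called higher as fitted at 0.15 (SE 0.047) and lower corrected at -0.14 (SE 0.031).

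Subunits of HDAC corepressors had 8 of 27 lower (29.6%) and 6 higher (22.2%), and 10 lower (37.0%) and 3 higher (11.1%) with the correction. For this list and those that follow, the shares of all entries were 19.7% lower and 18.3% higher as fitted. With the correction they were 11.3% lower and 11.4% higher. MTA1 and GPS2, named after their values were seen, turned from called higher as fitted, at 0.16 (SE 0.047) and 0.17 (SE 0.056), to called lower corrected, at -0.13 (SE 0.028) and -0.15 (SE 0.042). NCOR1, the scaffold of HDAC3, averaged 89.99 ± 2.45 CPM in the overexpressing libraries and 129 ± 4.25 CPM in the controls. RCOR1 (CoREST) was at -0.47 (SE 0.043), and MBD3 of NuRD was higher at 0.29 (SE 0.047), and all 3 kept their direction corrected. MTA2, also of NuRD, rose as fitted at 0.27 (SE 0.044), with 0.073 (SE 0.028) corrected. Subunits of acetyltransferase complexes had 13 of 38 lower and 7 higher as fitted, and 3 lower and 8 higher corrected. ING4, a subunit of the KAT7 complex, averaged 32.3 ± 1.6 CPM in the overexpressing libraries and 20.6 ± 1.05 CPM in the controls, with 0.50 (SE 0.062) corrected and called. MSL2 and TRRAP were lower in both fits, at -0.52 (SE 0.087) and -0.26 (SE 0.044) as fitted. Of 10 other acetyltransferases 9 fell as fitted, among them the coactivator NCOA2 at -0.63 (SE 0.070) and CLOCK at -0.71 (SE 0.11), and 1, NCOA2, was called with the correction. Of 19 other histone methyltransferases 3 were lower and 6 higher as fitted, and 8 lower and none higher corrected. PRMT1, an arginine methyltransferase named after its values were seen, was called higher at 0.17 (SE 0.044) as fitted and lower at -0.15 (SE 0.036) corrected. ASH1L, a further H3K36 enzyme, averaged 33.1 ± 2.46 CPM in the overexpressing libraries and 56.5 ± 3.16 CPM in the controls, with -0.38 (SE 0.049) corrected and called. SUV39H2, an H3K9 enzyme, was at -0.57 (SE 0.093) and called in both fits, while the arginine methyltransferases PRMT5 and PRMT7 rose only as fitted, at 0.23 (SE 0.042) and 0.35 (SE 0.057). Of 6 other jumonji proteins JMJD1C and RIOX2 fell as fitted, at -0.51 (SE 0.13) and -0.25 (SE 0.067), and neither was called with the correction, where 1 of the 6 was lower and none higher.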

How the data were processed

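Per the labels' protocols, RNA was taken up in TRIzol, reads were trimmed (fastp) and aligned to GRCh38 (HISAT2), and StringTie assemblies were merged with gffcompare. The authors deposited raw counts per gene, with no normalization. The way of counting, with its strand setting, the kit and all versions, is not given in the sources used here. Labels gave the groups, and no column was left unassigned.

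The test was edgeR 4.0.16 (R 4.3.3), quasi-likelihood F, with TMM scaling and group as the only term, on the 19101 entries that filterByExpr kept (min.count 10, min.total.count 15). Adjustment was by Benjamini-Hochberg over all of them, at a threshold of 0.05. CPM use the TMM-scaled library size. Each SE is the absolute log2 fold change over the root of F. At 84531039 to 92780032 counts per library, genes under 1 CPM rest on few counts. For the correction, every library's log2 CPM minus the mean over libraries was fitted by natural splines (5 degrees of freedom) of GC content and of log2 length, taken from GENCODE 44 canonical transcripts, on entries with a mean log2 CPM over 2, and entered as an offset. Both properties were known for 99.3% of entries. The fits were tested on simulated data with no trend or a linear trend on GC content. A trend on length and the choice of transcript were not simulated, so the simulation does not test the correction for those.

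Every enzyme could be named. Values in every library were given for enzymes called in both fits, for up to 3 rising and 3 falling of smallest p on each side that lost or turned their call, and for the pairs. Of partner genes, up to 2 higher and 2 lower of smallest p were named per list. Other values were added after they were seen. The members and lists were chosen with earlier results of these data known. Alternatives were DESeq2 1.42.0, limma-voom (limma 3.58.1), other scalings, filters and corrections, a replicate block, leaving out each library and a 2-fold criterion. No 2 libraries agreed within sampling noise (chi-square per degree of freedom, 11.4 to 22.2), so none was merged as the same library deposited again, which does not show that they were separate cultures. Some marker genes are not reported here.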

Additional observations from a re-analysis of the deposited data

How the results depend on the processing

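Counts are given as higher and lower. The GC and length correction left 2172 and 2165 of all entries, 11 lower writers and 15 higher partner genes, and a writer median of -0.13. With splines of 3 degrees of freedom there were 2189 and 2191 entries, 7 higher erasers and 16 higher partner genes, with medians of -0.13 for writers and 0.063 for erasers. With GC content alone there were 2470 lower entries and 4 higher erasers, and the eraser median was 0.044. With length alone there were 6 higher and 9 lower writers, 3 lower erasers, and 43 higher and 39 lower partner genes, with medians of -0.075 for writers and 0.21 for erasers. With medians over coding transcripts, chosen after seeing the data, there were 2268 lower entries and 13 higher partner genes. Library size alone gave 1 higher writer and an eraser median of 0.036, and DESeq2 4 higher writers. The 2-fold criterion of the labels gave 338 and 226 entries and 0 writers, erasers and partner genes either way.

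With the correction the ratio of EP300 to CREBBP turned to 0.0050 and that of HDAC1 to HDAC2 to -0.31. Log2 fold changes that turned, called in at least 1 of the 2 fits, are given next. With the correction these were KDM5A at 0.052, KDM5B at 0.28, KDM3A at 0.20, HDAC2 at 0.30, HDAC3 at -0.16 and SIRT7 at -0.031. With 3 degrees of freedom they were KDM5A at 0.046, KDM5B at 0.27, KDM3A at 0.20, HDAC2 at 0.29, HDAC3 at -0.16, SIRT6 at -0.0019 and SIRT7 at -0.038. With GC content alone they were KDM3A at 0.17, HDAC2 at 0.14, HDAC7 at -0.14 and KMT2B at -0.23. With length alone they were KDM5B at 0.25, KDM3B at 0.23, HDAC2 at 0.10, KMT2D at 0.22, SETD1A at 0.22, CREBBP at 0.20 and EP300 at 0.058. With coding transcripts they were KDM3A at 0.28, KDM3B at 0.13, HDAC3 at -0.15, HDAC7 at -0.18, SIRT1 at 0.080, SIRT7 at -0.021 and KMT2B at -0.25. The cause was not tested.

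Leaving out each library, as fitted and corrected, gave 1547 to 3439 higher and 1396 to 3730 lower entries, 1 to 2 higher and 7 to 19 lower writers, 4 to 12 higher and 2 to 5 lower erasers, and 14 to 27 higher and 28 to 57 lower partner genes. Medians ran from -0.26 to -0.12 for writers and 0.042 to 0.12 for erasers. These counts and medians pool both kinds of fit: lower writers numbered 14 to 19 as fitted and 7 to 13 corrected. As fitted, higher erasers numbered 6 without control 2 and 7 without overexpressing 2, and higher writers 1 without any 1 of the controls or overexpressing 2. Corrected, lower writers numbered 7 without control 1 and without control 2. Ratios ran from -0.15 to 0.048 for KAT6A to KAT6B and from -0.027 to 0.086 for KDM4A to KDM4B. The log2 fold changes given next also pool fits with and without the correction. Without it, HDAC2, KDM5A, KMT5B, SIRT2, SIRT6 and SIRT7 kept their call whichever library was left out. Log2 fold changes ran from -0.28 to 0.31 for HDAC2, -0.18 to 0.071 for HDAC3, -0.087 to 0.19 for HDAC7, -0.16 to 0.16 for KAT2A, -0.23 to 0.18 for KAT8, -0.056 to 0.24 for KDM3A, -0.051 to 0.081 for KDM3B, -0.41 to 0.067 for KDM5A, -0.13 to 0.34 for KDM5B, -0.069 to 0.11 for KMT2B, -0.47 to 0.037 for KMT5B, -0.17 to 0.030 for SETD1A, -0.45 to 0.020 for SIRT1, -0.013 to 0.35 for SIRT2, -0.020 to 0.38 for SIRT6 and -0.076 to 0.34 for SIRT7.

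Whether the replicate numbers pair the samples is not known, so the block is only reported. Same-numbered libraries had correlations of -0.073, -0.26 and -0.44. These use deviations from a group mean of 3 libraries, which sum to 0 in each group, so they cannot decide it. With the replicate block 1 writer was higher and 16 lower, and 9 erasers were higher and 5 lower. The block with the correction gave 1709 and 1637 entries, 9 lower writers, 6 higher and 3 lower erasers, 16 higher and 35 lower partner genes, and a writer median of -0.13. In that fit KDM5A was at 0.052, KDM5B at 0.28, KDM3A at 0.20, HDAC2 at 0.30, HDAC3 at -0.16, SIRT7 at -0.029 and KAT2A at -0.13, each turned against the value as fitted. No library correlated best with its own number.

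Of 35 enzymes called as fitted, 25 kept the call without each library in turn and 16 with the correction. The 9 that kept it in all 25 settings were HDAC5, HDAC6, KDM1B, NSD1, NSD2, SETD2, KMT2A, SETD7 and KAT2B. Depth limits enzymes near 1 CPM such as SIRT4. The correction rests on 1 transcript per gene. That choice decides the direction of HDAC2 and, among others, changes the corrected calls of KDM5A, HDAC9, KMT2E, KDM6B, CREBBP and EZH2. KMT2E and CREBBP also kept their calls with the same transcript when the splines had 3 degrees of freedom.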
